A study of Mus musculus with 33 samples.

Results

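Glutamate and GABA receptor subunits were followed as a group of 46 genes, chosen by gene symbol from the 38393 features of each count table: 26 genes of ionotropic and metabotropic glutamate receptors and 20 genes of GABA-A and GABA-B receptors. All 46 symbols stood in all 5 deposited tables. The libraries were stranded and polyA-selected, and came from male C57Bl/6J mice aged 1 month. In experiment 1A, 4 cerebella of mice whose noncoding RNA Cyrano carries a mutated miR-7 site (CyrMut) were set against 3 wild-type cerebella. In experiment 1B, 4 cerebella lacking Cyrano (CyrKO, labelled Cyrano-/-) and 4 cerebella lacking Mir7a1 and Mir7b (Mir7DKO, labelled Mir7a1-/-; Mir7b-/-) were set against the same 4 wild-type cerebella. Experiment 2 held 3 Mir7DKO and 4 wild-type cerebella together with 3 Mir7DKO and 4 wild-type cortices, which gives the cerebellum against cortex comparison. RNA came from whole frozen tissue with no cell type selected, and nothing in the labels says whether libraries with the same number share a mouse. Libraries are called cerebella or cortices here, and the labels do not say that each came from a separate mouse.

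Ionotropic glutamate receptors are cation channels built from 4 subunits of the AMPA (Gria), kainate (Grik) or NMDA (Grin) type, and the delta subunits (Grid) act mainly as synaptic adhesion and signalling receptors. Metabotropic glutamate receptors (Grm) signal through G proteins, group I mostly to phospholipase C and groups II and III mostly to lower cyclic AMP. GABA-A receptors (Gabr) are chloride channels assembled from alpha, beta and gamma or delta subunits, and GABA-B receptors pair Gabbr1 with Gabbr2. Cerebellar granule cells are the most numerous neurons of the brain and are known for the alpha6 and delta GABA-A subunits and for Grm4.

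The wild-type libraries of experiment 2 held 9.77 to 12.37 M counts in cerebellum and 7.1 to 7.76 M in cortex, and the other groups lay between 6.89 and 24.94 M. Marker genes fitted the tissue labels: the 7 granule cell, 6 Purkinje cell and 3 regional genes were all higher in wild-type cerebellum, and 7 of 8 cortical genes were lower, the exception being Neurod2. Summed choroid plexus markers ran from 32.7 to 38.5 CPM (counts per M counted reads) in wild-type cerebella and from 16.3 to 400 CPM in wild-type cortices. Summed striatal markers ran from 95.7 to 102 CPM in the same cerebella and from 317 to 822 CPM in the cortices, with the spread lying among the cortices. The part of these sums in the tissue results was not tested. In whole tissue, fewer cells of a type and less RNA per cell cannot be told apart.

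Wild-type cerebellum differed from wild-type cortex in nearly every receptor gene measured, and most families held genes that were higher beside genes that were lower. Library sizes were TMM-scaled for all CPM given, and genes were tested with edgeR's quasi-likelihood test at an adjusted p under 0.05. Of the 46 genes 40 passed the filter on low counts, and of these 12 were higher and 26 were lower in cerebellum. Calls were common in this comparison: 74.7% of the 14001 genes tested were called in either direction, 37.3% higher and 37.4% lower, against 95% of the receptor genes tested. At least 2-fold calls were made for 7 receptor genes that were higher and 15 that were lower, which is 55% of those tested, where all genes gave 24.3% in either direction, 9.24% higher and 15.1% lower. The median size of the log2 fold change was 1.4 for the receptor genes and 0.47 for all genes. The cerebellar and cortical libraries did not overlap for 37 of the 40 receptor genes tested, where 68.3% of all genes tested did not overlap. Among the called receptor genes, the cerebellar and cortical libraries overlapped for Gabra2 alone, with 36, 45.2, 24.4 and 22.4 CPM in cerebellum against 43.5, 37.3, 65 and 72 CPM in cortex (log2 fold change -0.78 ± 0.18, SE). All folds that follow are cerebellum over cortex with 4 libraries each. The ± beside a log2 fold change is a standard error worked back from the test: the size of the change over the square root of edgeR's F. It can be too small where a group holds few counts, as for Gabra6 below.

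**Figure D1:**
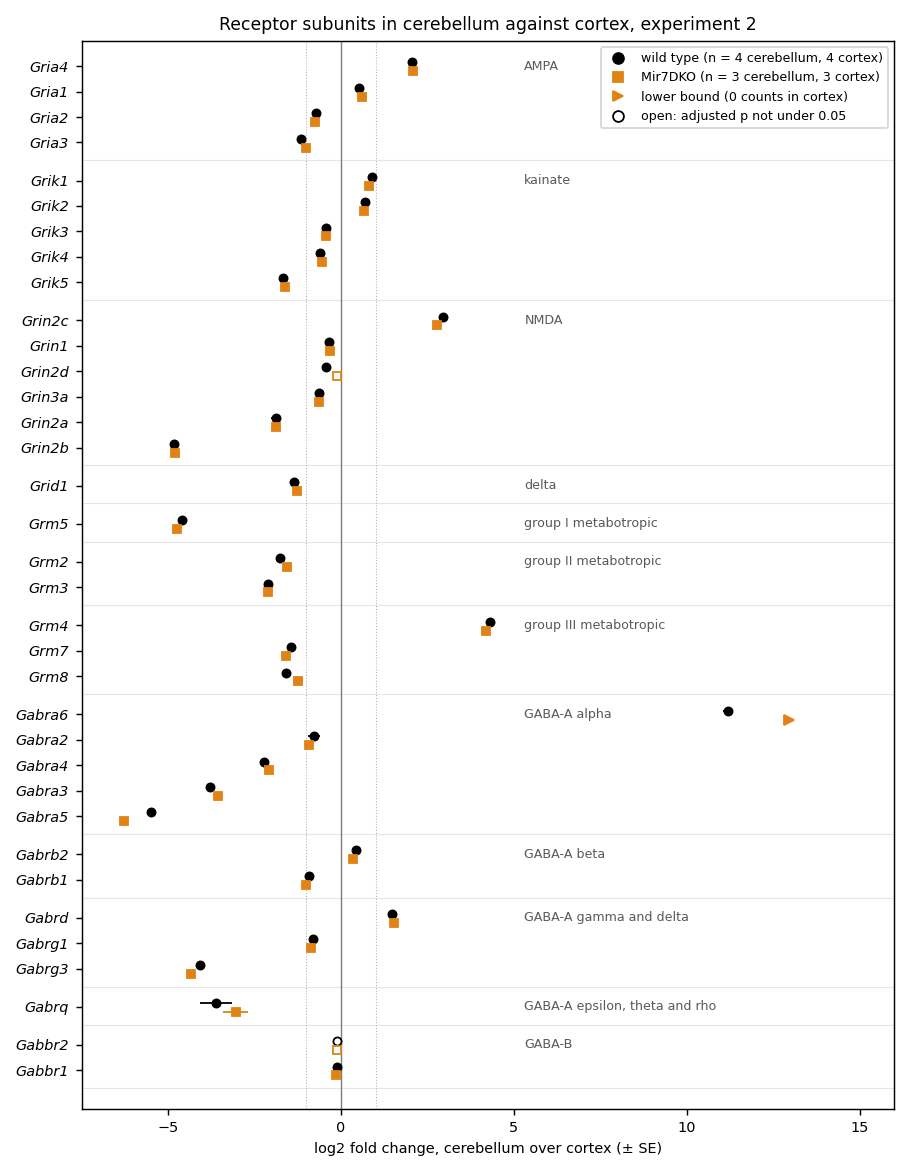
Log2 fold change of cerebellum over cortex (x axis, ± SE) for 35 receptor genes tested in wild type, ordered within families, in wild type (black circles) and Mir7DKO (orange squares); open symbols did not pass an adjusted p under 0.05, the triangle is the lower bound for Gabra6 in Mir7DKO and dotted lines mark 2-fold. Most families held genes on both sides of 0, and the 2 genotypes lay close together.

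The 4 AMPA receptor genes all passed the test, Gria4 and Gria1 as higher and Gria2 and Gria3 as lower in cerebellum. Gria4, which encodes GluA4, the subunit known from Bergmann glia, granule cells and fast interneurons, had 701, 701, 682 and 708 CPM in the cerebella against 182, 158, 169 and 170 CPM in the cortices. The groups were far apart, with a log2 fold change of 2.04 ± 0.043 (edgeR adjusted p = 8.45e-22). Gria3 (GluA3) moved the other way, with 200, 189, 176 and 191 CPM in cerebellum against 430, 414, 415 and 413 CPM in cortex. Every cortex lay above every cerebellum for it, at a log2 fold change of -1.15 ± 0.042 (edgeR adjusted p = 3.25e-17). Gria1 averaged 682 ± 35.5 CPM in cerebellum and 472 ± 14.7 CPM in cortex (SD). Gria2, whose edited subunit makes AMPA channels impermeable to calcium, averaged 516 ± 12.5 CPM in cerebellum and 859 ± 22.6 CPM in cortex, a log2 fold change of -0.73 ± 0.038.

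Kainate receptor genes split in the same way, 2 higher and 3 lower. Grik1, encoding GluK1, had 30.8, 26.1, 32.9 and 33.2 CPM in the cerebella and 19.3, 13.1, 16.5 and 17.6 CPM in the cortices. That was the family's largest increase, a log2 fold change of 0.89 ± 0.1 (edgeR adjusted p = 5.05e-08), and the groups did not overlap. Grik5, one of the high-affinity subunits that need a partner to form a channel, had 70.6, 68.2, 72.6 and 75.2 CPM in cerebellum against 225, 244, 221 and 230 CPM in cortex. Its log2 fold change was -1.68 ± 0.048 (edgeR adjusted p = 2.05e-19). The remaining 3 lay within 2-fold: Grik2 was higher at 0.68, and Grik3 and Grik4 were lower at -0.45 and -0.6 on the log2 scale.

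Among the NMDA receptor genes, the Grin2 genes, whose subunits set the channel's kinetics, differed in both directions. The gene of the obligatory subunit was slightly lower. Grin2c had 371, 401, 395 and 382 CPM in the cerebella against 48.7, 49.6, 52.8 and 47.9 CPM in the cortices. It was the only NMDA receptor gene that was called higher, with a log2 fold change of 2.96 ± 0.048 (edgeR adjusted p = 7.01e-24). Grin2b, the subunit of slow-decaying and juvenile receptors, had 5.6, 5.86, 6.69 and 7.21 CPM in cerebellum against 177, 144, 205 and 196 CPM in cortex. No cerebellum came near any cortex, and the log2 fold change was -4.82 ± 0.11 (edgeR adjusted p = 2.21e-21). Grin2a averaged 9.67 ± 2.61 CPM in cerebellum and 36.1 ± 8.38 CPM in cortex, a log2 fold change of -1.88 ± 0.15. Grin1, the subunit that every NMDA receptor needs, averaged 365 ± 14.4 CPM in cerebellum and 466 ± 33.1 CPM in cortex, and its log2 fold change of -0.35 was small beside those of its partners. Grin2d and Grin3a were lower at -0.45 and -0.64.

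Of the delta receptors, Grid1, an adhesion receptor of forebrain synapses, had 27.1, 28.1, 30.4 and 29 CPM in cerebellum against 77.8, 68, 72.7 and 74.5 CPM in cortex, with no overlap and a log2 fold change of -1.35 ± 0.062 (edgeR adjusted p = 2.34e-15).

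Grm5, a group I metabotropic receptor, had 11.4, 13.5, 14.4 and 12.4 CPM in cerebellum against 295, 322, 325 and 330 CPM in cortex. Every cerebellum lay far below every cortex, at a log2 fold change of -4.61 ± 0.063 (edgeR adjusted p = 3.2e-25). Both presynaptic group II genes were lower. Grm3, a receptor of neurons and astrocytes, had 24.5, 24.4, 21.7 and 20.2 CPM in cerebellum against 92.5, 91.8, 99.4 and 103 CPM in cortex (log2 fold change -2.1 ± 0.068, edgeR adjusted p = 2.57e-18). Grm2, known in cerebellum from Golgi cells and unipolar brush cells, averaged 13.9 ± 1.18 CPM in cerebellum and 46.5 ± 7.9 CPM in cortex, a log2 fold change of -1.76 ± 0.1.

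Within group III, Grm4, an autoreceptor of parallel fibre terminals, had 658, 717, 642 and 611 CPM in the cerebella against 31.7, 34.8, 33.1 and 33.6 CPM in the cortices. It was 19.7-fold higher in cerebellum (log2 fold change 4.3 ± 0.058, edgeR adjusted p = 2.13e-25). Grm8 had 8.7, 6.53, 4.94 and 6.22 CPM in cerebellum against 22.9, 16.8, 17.6 and 20.4 CPM in cortex, a log2 fold change of -1.58 ± 0.14 (edgeR adjusted p = 7.03e-10). Grm7 averaged 26.2 ± 0.881 CPM in cerebellum and 71.9 ± 5.85 CPM in cortex, at -1.45 ± 0.066. Grm6, known from retinal bipolar cells, had 0 counts in all 8 wild-type libraries.

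**Figure D2:**
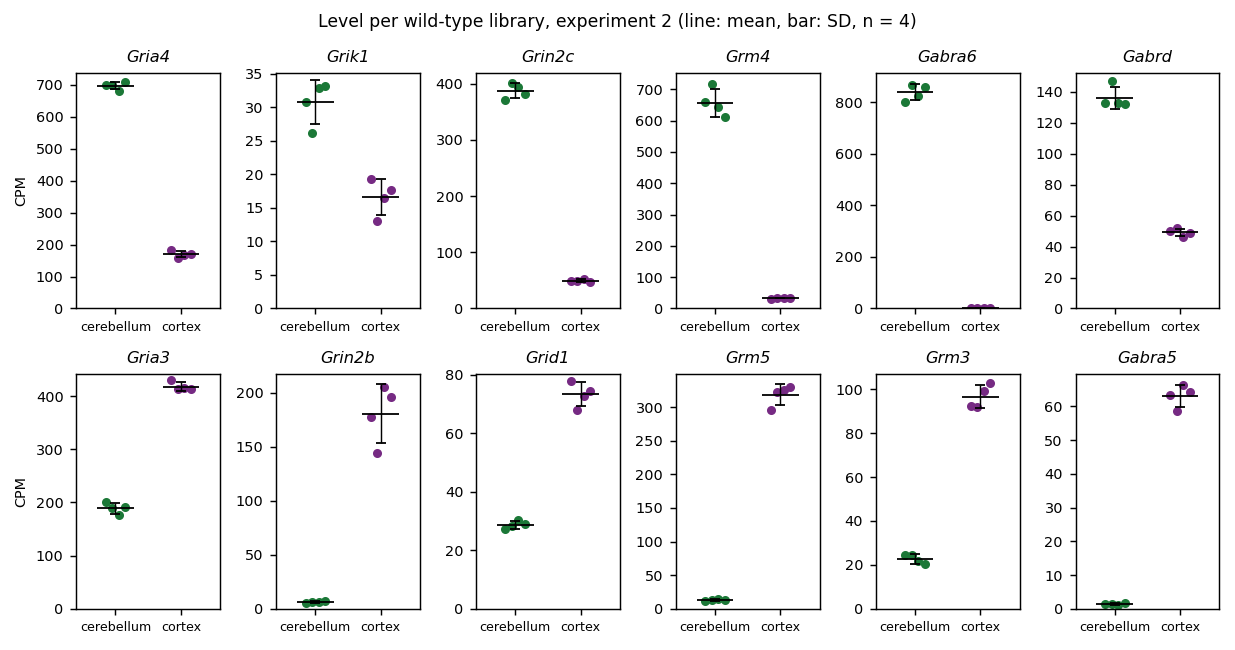
Level in CPM (y axis, linear, from 0, own scale in each panel) of 12 receptor genes in each wild-type library of experiment 2, cerebellum at the left and cortex at the right; dots are libraries, lines the mean and bars the SD of 4. The upper row holds genes that were higher and the lower row genes that were lower in cerebellum, and the 2 tissues do not overlap in any panel.

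The GABA-A alpha subunits held the largest differences in both directions. Gabra6, the alpha6 subunit of granule cells, had 802, 866, 824 and 860 CPM in the cerebella against 0, 1.27, 0 and 0.139 CPM in the cortices. The fitted log2 fold change was 11.18 ± 0.15 (edgeR adjusted p = 1.87e-25), set by only 10 counts over the 4 cortical libraries, 9 of them in replicate 2. That cortex also had the highest level of the granule cell gene Cbln3: cerebella had 1816 to 2002 CPM of it, that cortex 4.79 CPM and the other 3 cortices 0.267 to 0.722 CPM. The part of cerebellar RNA in these counts was not tested. Without cortex replicate 2, 1 count remained and the fitted log2 fold change was 13.79. That move was far larger than the ± 0.15, which understates the uncertainty here. The plain ratio of the mean levels without that cortex was 18100, with a 95% counting interval of 3250 to 715000.

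At the other end, Gabra5, the alpha5 subunit of extrasynaptic receptors in hippocampus and cortex, had 1.5, 1.32, 1.11 and 1.64 CPM in the cerebella against 63.3, 58.6, 66.5 and 64.2 CPM in the cortices. Its log2 fold change was -5.49 ± 0.11 (edgeR adjusted p = 2.56e-22). Gabra3 averaged 13.6 ± 1.14 CPM in cerebellum and 190 ± 11.9 CPM in cortex (-3.79 ± 0.067). Gabra4, a partner of the delta subunit in forebrain, averaged 34.4 ± 1.05 CPM in cerebellum and 163 ± 9.46 CPM in cortex (-2.24 ± 0.055).

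Gabrb2 and Gabrb1, of the beta subunits, were called in opposite directions, each at under 2-fold. Gabrb2, a partner of alpha6, had 239, 240, 258 and 258 CPM in the cerebella against 204, 163, 189 and 186 CPM in the cortices, a log2 fold change of 0.43 ± 0.053 (edgeR adjusted p = 1.74e-07). Gabrb1 had 25.1, 26.3, 22.3 and 26.9 CPM in cerebellum against 46.9, 46.8, 50.4 and 48.5 CPM in cortex, at -0.94 ± 0.07 (edgeR adjusted p = 2.58e-11). Neither pair of groups overlapped.

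Of the subunits that take the gamma position, Gabrd, the delta subunit of tonic receptors, had 133, 147, 133 and 132 CPM in the cerebella against 50, 52.1, 46.5 and 48.5 CPM in the cortices (log2 fold change 1.47 ± 0.055, edgeR adjusted p = 4.53e-17). Gabrg3 was the family's largest decrease, with 4, 2.74, 3.5 and 3.77 CPM in cerebellum against 61.6, 59.1, 60.9 and 58.8 CPM in cortex (-4.09 ± 0.093, edgeR adjusted p = 3.22e-21). Gabrg1 was lower at -0.8.

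Gabrq, the theta subunit, was scarce in both tissues, with 0.1, 0.662, 0.159 and 0.0819 CPM in the cerebella and 1.6, 4.37, 4.04 and 2.64 CPM in the cortices. It was called lower, at a log2 fold change of -3.62 ± 0.46 (edgeR adjusted p = 1.89e-07), and at -4.61 without wild-type cerebellum replicate 2. Gabre had 0 counts over the 4 cerebella and 22 over the 4 cortices, which at a floor of 3 counts over the cerebella is a level at least 11.6-fold lower in these cerebella. Other cerebella did hold Gabre reads: the wild types had a mean of 0.125 CPM in experiment 1A and 0.1 CPM in experiment 1B, above the 0.0662 CPM of that floor, and the 3 Mir7DKO cerebella of experiment 2 had 9 counts against 31 in the 3 Mir7DKO cortices. The rho subunits known from retina and the glycine-binding Grin3b also fell below the filter: Gabrr1 had 13 counts in cerebellum and 1 in cortex, Gabrr2 46 and 11, Gabrr3 0 and 1, and Grin3b 71 and 4, each summed over 4 libraries.

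Both GABA-B receptor genes differed little between the tissues. Gabbr1 had 830, 802, 826 and 829 CPM in the cerebella against 898, 910, 900 and 892 CPM in the cortices. It was called lower at only -0.13 ± 0.036 (edgeR adjusted p = 0.00225), and with no filter on low counts its adjusted p was 0.0766. Gabbr2, the subunit that couples to G proteins, had 474, 437, 496 and 482 CPM in cerebellum and 556, 481, 525 and 474 CPM in cortex, overlapping groups with a log2 fold change of -0.11 ± 0.049 (edgeR adjusted p = 0.0528).

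To compare genes with each other, levels were divided by length and expressed as shares of a family in each library, a description with no test. Per kb of all annotated exons, Gabra6 made up 70 ± 0.733% of the alpha subunit signal in wild-type cerebellum and 0.0778 ± 0.137% in wild-type cortex (SD, n = 4 each). The length used matters here. Per kb of the longest coding sequence, a measure added after the data were seen, Gabra6 held 44.9% in cerebellum and 0.0358% in cortex, so the cerebellar share moved with the measure while the tissue difference remained. Grin2c held 96.6 ± 0.193% of the Grin2 signal in cerebellum and 45.5 ± 3.03% in cortex by exons, and 93.8% and 20.3% by coding sequence. Grin2b, whose longest annotated 3′ UTR is 18865 bases, held 0.321 ± 0.0378% in cerebellum and 33.3 ± 2.78% in cortex by exons, and 1.28% and 60.8% by coding sequence, so its place beside Grin2c in cortex also turned with the measure.

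By exons, Grm4 held 95.5 ± 0.348% of the group III signal in cerebellum and 28.3 ± 2.36% in cortex. Gria4 held 40.1 ± 0.717% of the AMPA receptor signal in cerebellum and 13.3 ± 0.671% in cortex. Summed over families, the alpha subunits reached 481 ± 12.4 CPM per kb in cerebellum and 192 ± 9.55 CPM per kb in cortex, group III 115 ± 7.45 and 19.7 ± 1.03, and group II 10.3 ± 0.886 and 41.2 ± 2.24. The sums of the GABA-B genes lay close, 176 ± 5.33 CPM per kb in cerebellum and 192 ± 5.75 CPM per kb in cortex.

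**Figure D3:**
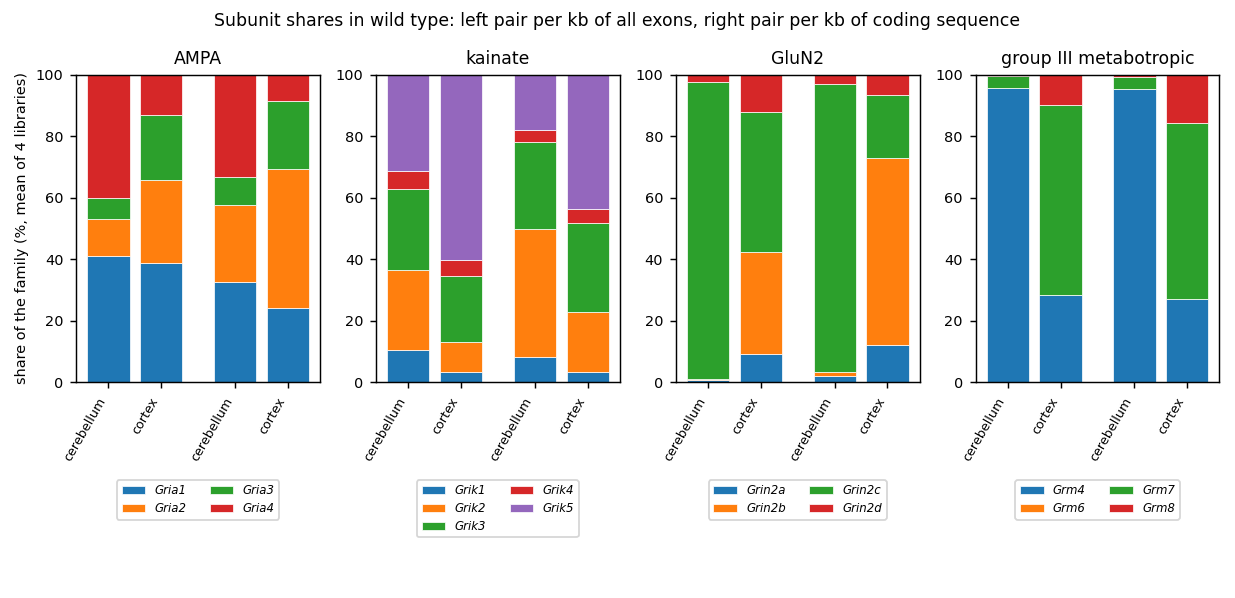
Share of each subunit gene in its family (y axis, percent, mean of 4 wild-type libraries per tissue) with levels per kb of all annotated exons (left pair of bars) and per kb of the longest coding sequence (right pair), cerebellum before cortex in each pair. Grin2c filled 96.6% (exons) or 93.8% (coding sequence) of the Grin2 bars in cerebellum, and Grm4 filled 95.5% (exons) of the group III bar there against 28.3% in cortex.

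Most GABA-A receptor genes lie in clusters, and their tissue differences are given by cluster, with no test of a pattern. Lower calls were made for 65% of all receptor genes tested and for 37.4% of all genes tested. Positions are from the GENCODE annotation of GRCm38. On chromosome 11, Gabra6 (42306437 to 42321072) and Gabrb2 (42419757 to 42629028) were both higher, at 11.18 and 0.43 on the log2 scale. All 4 genes of the chromosome 5 cluster were lower, Gabrg1 at -0.8, Gabra2 at -0.78, Gabra4 at -2.24 and Gabrb1 at -0.94, and so were Gabrg3 at -4.09 and Gabra5 at -5.49 on chromosome 7. On the X chromosome Gabra3 and Gabrq were lower and Gabre was not tested. Gabra4 (5, 71569749 to 71658308, minus strand) overlaps Gabrb1 (71658113 to 72149037, plus strand), and Gabra5 also overlaps a gene on the other strand. No source used here states whether the counting used strand, and reads from such overlaps cannot be assigned with certainty.

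**Figure D4:**
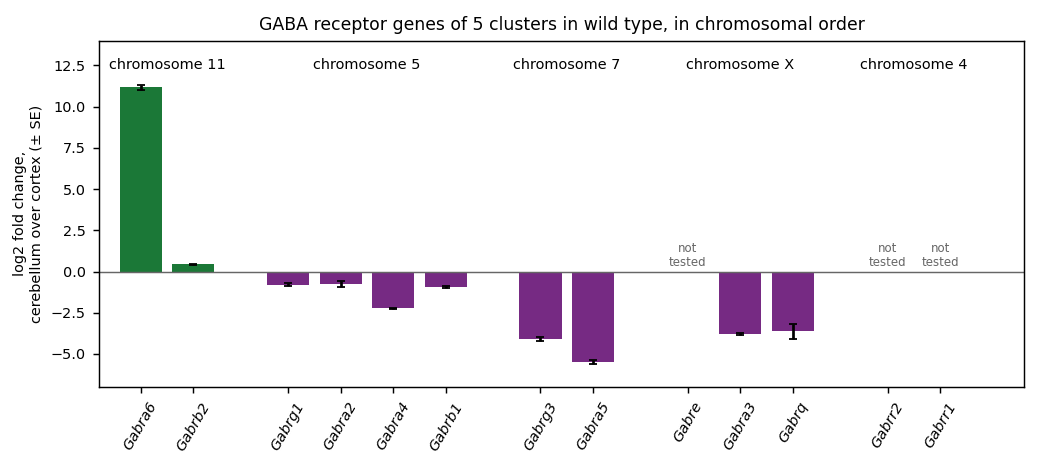
Log2 fold change of wild-type cerebellum over cortex (y axis, ± SE, 4 libraries each) for the tested GABA receptor genes of 4 clusters in chromosomal order, with Gabre and the chromosome 4 genes Gabrr2 and Gabrr1 marked as not tested. Gabra6 stands at 11.18 in the chromosome 11 cluster, and the genes shown for the chromosome 5 and 7 clusters lie below 0.

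The proximal promoters of Gabra6 and Grin2c, both on chromosome 11 and both higher in cerebellum, are shown because they differ in base composition although the genes moved the same way. The sequences are RefSeq's 250 bases before the gene start on GRCm38.p6, 5′ to 3′ on the minus strand, with CpG dinucleotides in capitals. Gabra6 spans chr11:42321073-42321322 and Grin2c spans chr11:115267244-115267493.
Gabra6: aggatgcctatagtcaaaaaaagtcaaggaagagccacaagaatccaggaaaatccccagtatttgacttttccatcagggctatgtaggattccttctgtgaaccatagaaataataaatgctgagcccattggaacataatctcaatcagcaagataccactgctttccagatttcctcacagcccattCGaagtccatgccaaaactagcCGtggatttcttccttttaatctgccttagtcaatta
Grin2c: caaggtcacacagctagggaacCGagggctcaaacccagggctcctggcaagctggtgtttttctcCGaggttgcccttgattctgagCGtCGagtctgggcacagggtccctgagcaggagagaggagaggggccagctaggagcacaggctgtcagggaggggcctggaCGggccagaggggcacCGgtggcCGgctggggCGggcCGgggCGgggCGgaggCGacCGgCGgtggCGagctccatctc
The Gabra6 stretch held 2 CpG at 40.8% G and C, and the Grin2c stretch held 15 CpG at 68.8%, where the median over 32851 promoters of this length was 6 CpG. RefSeq promoters were at hand for 31 of the 46 genes, as 38 stretches. The TATA box letters TATAAA, searched on both strands, were found in neither stretch, in 4 of the 38 and in 12.4% of all promoters. The Grik3 stretch held 42 CpG and the Gabra3 stretches held 0, and both genes were lower in cerebellum.

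The tissue difference was repeated in mice without Mir7a1 and Mir7b. Of 41 receptor genes tested between 3 Mir7DKO cerebella and 3 Mir7DKO cortices, 13 were higher and 25 were lower, where 68.2% of 14431 genes were called in either direction, 34.1% higher and 34.1% lower. Over the 40 genes tested in both genotypes, 37 were called in the same direction in both, which is 97.4% of the 38 called in wild type and 100% of the 37 called in Mir7DKO. The matching share over all genes was not computed, so this agreement cannot be read as particular to the receptor genes. The gene tested only in Mir7DKO was Grin3b, with 1.52, 1.3 and 1.27 CPM in the cerebella against 0.296, 0.193 and 0.494 CPM in the cortices (log2 fold change 2.01 ± 0.44, edgeR adjusted p = 0.00044). Gabra6 had 838, 861 and 892 CPM in the Mir7DKO cerebella and 0 counts in the 3 Mir7DKO cortices, at least 7840-fold higher in cerebellum at a floor of 3 counts over the cortices. Grin2b had 7.98, 6.52 and 4.59 CPM in Mir7DKO cerebella against 143, 192 and 195 CPM in Mir7DKO cortices (-4.8 ± 0.14, edgeR adjusted p = 7.92e-18).

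Grin2d was the gene whose call differed between the genotypes. It had 16.9, 12.7 and 15 CPM in Mir7DKO cerebella against 17.9, 14.9 and 15.8 CPM in Mir7DKO cortices (-0.11 ± 0.12, edgeR adjusted p = 0.447), whereas wild type averaged 12.7 ± 1.3 CPM in cerebellum and 17.3 ± 0.346 CPM in cortex (-0.45 ± 0.098, edgeR adjusted p = 0.000261). The test of the difference itself, a tissue by genotype term over all 14 libraries, called 0 of 43 receptor genes with edgeR, where 0.155% of 14886 genes were called. At an unadjusted p under 0.05 it gave 6 of them with edgeR, Grin2d among them (edgeR adjusted p = 0.987), and DESeq2 called 0 with 6 at an unadjusted p under 0.05. With edgeR that was 14% of the receptor genes against 4.92% of all genes tested, a difference that was not tested. The lowest p of the 6 was that of Gabra6, whose value rests on the 10 wild-type cortical counts described above.

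The mutant comparisons ask which genes differ when Cyrano, its miR-7 site or miR-7 is changed. Cyrano is a long noncoding RNA whose site pairs with miR-7 and is known to drive that miRNA's decay, and miR-7 in turn lowers transcripts that hold its seed match. Cyrano (1700020I14Rik) lay between 74.7 and 88.3 CPM in CyrKO cerebella and between 1579 and 1970 CPM in their wild types, and between 1924 and 1999 CPM in CyrMut cerebella and between 1557 and 1873 CPM in theirs. Cdr1as, a noncoding RNA rich in miR-7 sites, lay between 94.7 and 122 CPM in CyrMut and between 1044 and 1226 CPM in wild type, and between 89.5 and 142 CPM in CyrKO and between 649 and 1152 CPM in wild type. The mutated site itself and miR-7 cannot be read from these gene counts. The seed of miR-7 is shown because it defines the matches searched for. The mature sequences are RefSeq's, with the seed in capitals.
mmu-miR-7a-5p: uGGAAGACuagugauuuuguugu
mmu-miR-7b-5p: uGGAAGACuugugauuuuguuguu
Both share the seed. The first is listed for Mir7-1 and for Mir7-2, and Mir7-2 is not among the alleles that the Mir7DKO label names.

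Matches to the seed were searched as the 7-mer TCTTCCA, as the other 7-mer, GTCTTCC, and as the 8-mer that joins them. The search covered the longest annotated 3′ UTR of each gene, on the transcript strand. That stretch was taken over all transcripts with a coding sequence, so it can hold bases that another transcript translates. For Grik5 it had 3092 bases and the longest coding sequence 2937, together more than the 5168 bases of all its exons. Which matches, those printed below included, lie in such bases was not examined. Matches were found in 18 of the 46 receptor genes, where 25% of 20543 genes with a 3′ UTR held one. A longer stretch has more room for a match, and length was not taken into account, so these shares cannot be compared directly. The stretch searched had 9929 bases in Grin2a, 18865 in Grin2b, 3400 in Gabbr1 and 12228 in Gabrb1. Grin2a held 6 matches, Grin2b and Gabbr1 held 5 each, and Gabrb1 held 3. A single 8-mer was among them, in Grin2b. It is shown with the matches of Grin2c and Grm4, both higher in cerebellum, with the matched letters in capitals and GENCODE's transcript sequence around them.
Grin2b: ccactcacccaGTCTTCCAt
Grin2c: gtgaaaaggataTCTTCCAt
Grm4: tctacatcatccTCTTCCAc
A match is a description of the letters and not a measured site.

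No receptor gene was called in any mutant comparison with edgeR, and DESeq2 called 0 in each as well. In CyrMut 0 of 41 receptor genes tested were called, where 0.00673% of 14866 genes were called, and 3 had an unadjusted p under 0.05 with edgeR and 4 with DESeq2. For CyrKO 0 of 40 were called (0.0220% of 13664 genes), with 2 at an unadjusted p under 0.05 by either tool. For Mir7DKO cerebellum 0 of 40 were called in experiment 1B (0.00713% of 14031 genes, 1 at an unadjusted p under 0.05 by either tool) and 0 of 41 in experiment 2 (0.198% of 14146 genes, 3 with edgeR and 2 with DESeq2). For Mir7DKO cortex 0 of 39 were called (0.0436% of 13754 genes), with 1 at an unadjusted p under 0.05 by edgeR and 0 by DESeq2. Over all genes tested, edgeR gave an unadjusted p under 0.05 for 4.98%, 7.35%, 3.68%, 6.78% and 5.77% in the 5 comparisons in this order. The shares of the receptor genes were 7.32%, 5%, 2.5%, 7.32% and 2.56%. With no filter on low counts, edgeR called 1 receptor gene, Gabra2, in Mir7DKO cerebellum of experiment 2. Its levels were 25, 24.7 and 28.5 CPM in Mir7DKO against 36.8, 46.2, 25 and 22.9 CPM in wild type, overlapping groups with a log2 fold change of -0.32 ± 0.16 and an edgeR adjusted p of 0.76 when the filter was applied. The authors' deposited tables give 0 of the receptor genes an adjusted p under 0.05 in each of the 5 comparisons. The median size of the log2 fold change over the receptor genes was 0.08, 0.09, 0.06, 0.05 and 0.05 in the 5 comparisons in this order.

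**Figure D5:**
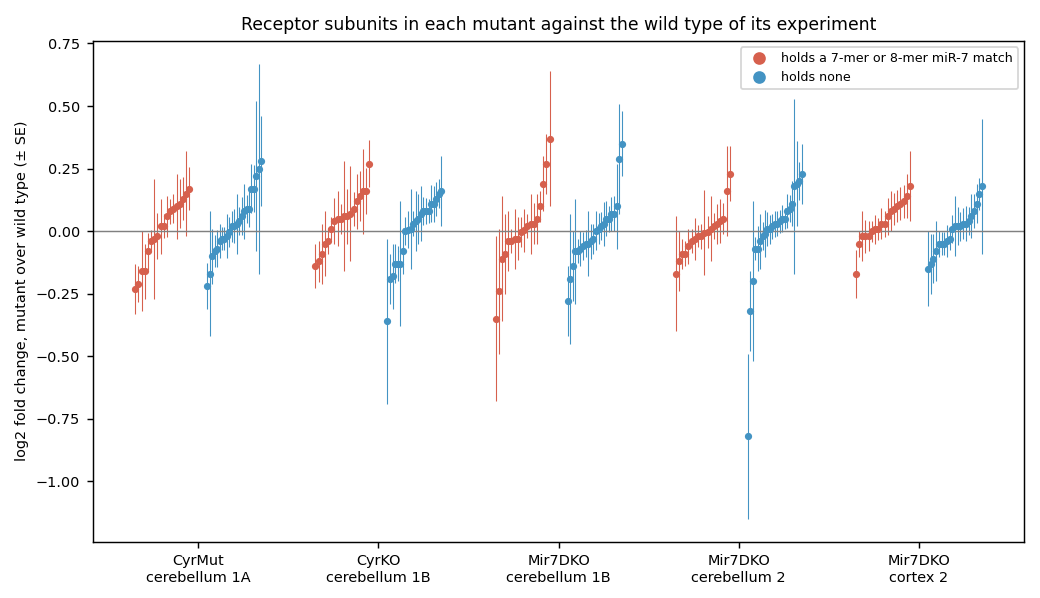
Log2 fold change of mutant over wild type (y axis, ± SE) of every receptor gene tested in each of the 5 mutant comparisons, with genes that hold a 7-mer or 8-mer miR-7 match at the left in red and the others at the right in blue, each sorted by value. Gabra5 in Mir7DKO cerebellum of experiment 2 is the lowest point at -0.82, and none of the points passed the test.

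How small a change could be seen depended on the gene. Among receptor genes at 10 CPM or more in wild type, log2 fold changes ran from -0.23 to 0.28 in CyrMut (35 genes, median SE 0.075), from -0.19 to 0.27 in CyrKO (35 genes, median SE 0.088) and from -0.35 to 0.37 in Mir7DKO of experiment 1B (35 genes, median SE 0.081). In experiment 2 they ran from -0.32 to 0.23 in Mir7DKO cerebellum (34 genes, median SE 0.062) and from -0.17 to 0.18 in Mir7DKO cortex (38 genes, median SE 0.066). The SE was largest for Grin2a in the first 3 comparisons, at 0.24, 0.22 and 0.33, and for Gabra2 in the last 2, at 0.16 and 0.15. The CyrKO and Mir7DKO comparisons of experiment 1B share their 4 wild-type cerebella.

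The smallest unadjusted p in CyrMut was that of Grin2c, with 326, 361, 330 and 371 CPM in CyrMut cerebella and 363, 402 and 436 CPM in wild type. The groups overlapped, and the log2 fold change was -0.21 ± 0.072 (edgeR adjusted p = 0.944). Gabrd had 128, 171, 154 and 130 CPM in CyrMut against 166, 169 and 173 CPM in wild type (-0.22 ± 0.092), and Grm4 had 614, 616, 591 and 721 CPM against 634, 739 and 868 CPM (-0.23 ± 0.1), each with an edgeR adjusted p of 0.944 and overlapping groups. These 3 are subunits that were higher in cerebellum than in cortex. Summed choroid plexus markers ran from 45.1 to 1183 CPM in CyrMut and from 37.9 to 366 CPM in wild type, and their part in these values was not tested.

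In CyrKO, Grm5 had 13.4, 13.5, 13.8 and 14 CPM against 11.5, 12.5, 11.3 and 10.3 CPM in wild type. Its CyrKO and wild-type libraries did not overlap, at a log2 fold change of 0.27 ± 0.094 (edgeR adjusted p = 0.677). That was so for 1 of the 40 receptor genes tested and for 4.05% of all genes tested, a share near the background. The wild types of experiment 1B averaged 11.4 CPM of Grm5, below the 12.8 CPM of experiment 1A and the 13.2 CPM of experiment 2. Gria3 had 225, 199, 228 and 227 CPM in CyrKO against 210, 216, 197 and 179 CPM in wild type (0.13 ± 0.068, edgeR adjusted p = 0.701). The ranges overlap for Gria3.

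Among Mir7DKO cerebella of experiment 1B, Grin2d had 17.9, 16.7, 13.1 and 15.5 CPM against 10.5, 10.8, 13 and 14.9 CPM in wild type, with overlapping groups (0.35 ± 0.13, edgeR adjusted p = 1). In experiment 2 the same comparison gave Gabra4 the smallest p, with 38.9, 38 and 44.7 CPM in Mir7DKO against 34.7, 33.9, 36.2 and 35.8 CPM in wild type (0.2 ± 0.075, edgeR adjusted p = 0.508). Its groups did not overlap, as for 4 of the 41 receptor genes and for 6.70% of all genes tested there. Gabra3 was among the 3 smallest p in both experiments. Its libraries had 17.2, 19.8, 13.4 and 14.5 CPM in Mir7DKO against 12.9, 14.4, 12.8 and 14 CPM in wild type of experiment 1B (0.27 ± 0.12), and 17, 14.2 and 18 CPM in Mir7DKO against 14.1, 12.8, 15.5 and 13.4 CPM in wild type of experiment 2 (0.23 ± 0.11). Its groups overlapped in both experiments, and the edgeR adjusted p was 1 in the first and 0.73 in the second.

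Gabra5 had 0.814, 0.938 and 0.645 CPM in Mir7DKO cerebella of experiment 2 against 1.53, 1.35, 1.14 and 1.67 CPM in wild type, a log2 fold change of -0.82 ± 0.33 (edgeR adjusted p = 0.584) at very low levels, with all 3 Mir7DKO libraries under the 4 wild types. Experiment 1B did not show this difference: Gabra5 had 0.53, 2.41, 0.795 and 1.14 CPM in Mir7DKO against 0.911, 0.427, 0.733 and 0.505 CPM in wild type, overlapping groups that were too low to be tested, and the authors' deposited table gives it a log2 fold change of 0.94 there. The wild-type cerebella of experiment 2 also stood above the other wild types, with a mean of 1.42 CPM against 0.693 CPM in experiment 1A and 0.643 CPM in experiment 1B. Grm8 had 6.78, 7.36, 5.78 and 5.06 CPM in Mir7DKO of experiment 1B against 6.9, 7.47, 7.12 and 8.8 CPM in wild type (-0.28 ± 0.14, edgeR adjusted p = 1). In experiment 2 its difference had the other sign, with 8.14, 6.33 and 8.46 CPM in Mir7DKO against 8.9, 6.67, 5.05 and 6.34 CPM in wild type (0.19 ± 0.17, edgeR adjusted p = 0.913), and the groups overlapped in both experiments. Summed choroid plexus markers lay between 32.6 and 711 CPM in Mir7DKO cerebella of experiment 2 and between 33.4 and 39.4 CPM in their wild types, and their part in these values was not tested.

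In Mir7DKO cortex the smallest p belonged to Grm3, with 94.7, 110 and 108 CPM against 90.2, 89.8, 97.3 and 101 CPM in wild type (0.15 ± 0.064, edgeR adjusted p = 0.849). Grm7 had 74.5, 75.3 and 80.1 CPM in Mir7DKO against 78.5, 67.2, 69.1 and 66.6 CPM in wild type (0.12 ± 0.066, edgeR adjusted p = 0.886), and Grm2 had 40.4, 41.2 and 40 CPM against 56, 37.9, 42.9 and 45.3 CPM (-0.17 ± 0.096, edgeR adjusted p = 0.9). All 3 pairs of groups overlapped.

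Receptor genes with a miR-7 match had medians near those of the other receptor genes in the mutants, given here with no test. In Mir7DKO cerebellum of experiment 2 their median log2 fold change was -0.01 over 18 genes, against 0.03 over the 23 receptor genes without a match, and in Mir7DKO cortex it was 0.03 over 18 genes against 0.02 over 21. In CyrMut both medians were 0.02, over 18 genes with a match and 23 without, and in CyrKO they were 0.06 over 18 genes with a match and 0.04 over 22 without. In Mir7DKO of experiment 1B the median was 5e-05 over 18 genes with a match and -0.01 over 22 without. Over all genes tested, those with a match had medians of 0.0022 in Mir7DKO cerebellum of experiment 2 and 0.0054 in Mir7DKO cortex, and those without had -0.0034 and 0.0033.

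The 3 sets of wild-type cerebella gave a view of how stable these levels were between experiments, side by side and with no test, since experiment and set cannot be told apart. Over the 40 receptor genes at 1 CPM or more in each, the highest mean was a median of 1.13 times the lowest. Gabra6 averaged 996 ± 48.6 CPM in experiment 1A (n = 3), 925 ± 57 CPM in 1B and 856 ± 30.4 CPM in 2 (n = 4 each). Grin2a spread more, with 18.2 ± 8.63, 18 ± 5.92 and 9.86 ± 2.65 CPM, a ratio of 1.85 between the highest and the lowest mean. Gabra2 had 21.7 ± 2.77, 24.7 ± 4.78 and 32.7 ± 10.9 CPM, a ratio of 1.51. The largest ratio, 1.98, was that of Gabrr2 at 1.03 to 2.04 CPM.

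Proteins that receptors need to reach and stay at synapses were compared in lists of auxiliary subunits, scaffolds, ligands and transmitter handling. Their counts stand against 74.7% of all genes called in this comparison, 37.3% higher and 37.4% lower. Of 16 AMPA and kainate auxiliary subunit genes tested in wild type, 5 were higher and 11 lower in cerebellum. Shisa6, an AMPA receptor auxiliary subunit, averaged 307 ± 13.7 CPM in cerebellum and 29.8 ± 0.517 CPM in cortex (3.36 ± 0.053), and Neto1, a kainate receptor auxiliary subunit, 3.14 ± 0.227 and 102 ± 8.2 CPM (-5.01 ± 0.091). Shisa7, known at both AMPA and GABA-A receptors, averaged 24 ± 1.61 CPM in cerebellum and 257 ± 7.97 CPM in cortex (-3.41 ± 0.054), and Cacng3, an AMPA receptor auxiliary subunit, was lower at -4.09 ± 0.081. Of 13 genes of GABA receptor auxiliary subunits and anchors, Shisa7 included, 4 were higher and 9 lower. Among them Kctd12, which binds GABA-B receptors, averaged 233 ± 18 CPM in cerebellum and 72.9 ± 3.62 CPM in cortex (1.68 ± 0.056), and Kctd16 of the same family 0.505 ± 0.203 and 20.6 ± 2.4 CPM (-5.31 ± 0.2), while the GABA-B receptor genes themselves differed little.

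Of 24 genes of the glutamatergic postsynaptic scaffold, 3 were higher, 18 were lower and 3 did not pass, where 37.3% of all genes tested were higher and 37.4% lower. Homer3, which links group I metabotropic receptors to calcium stores, averaged 204 ± 6.8 CPM in cerebellum and 6.42 ± 1.39 CPM in cortex (4.99 ± 0.082), while Dlgap2 and Dlgap3, which tie PSD-95 to Shank proteins, were lower at -6.29 ± 0.11 and -2.31 ± 0.046. Of 7 genes of delta receptor ligands 4 were higher and 3 lower. Cbln1, which binds presynaptic neurexins, averaged 799 ± 34.7 CPM in cerebellum and 12.2 ± 2.3 CPM in cortex (6.02 ± 0.073), and its relative Cbln2 0.181 ± 0.166 and 39.1 ± 3.79 CPM (-7.68 ± 0.22). Cbln3, which is secreted together with Cbln1, was higher at 10.22 ± 0.16, and Cbln4 was lower at -4.29 ± 0.23. Of 16 genes of transmitter synthesis and transport 6 were higher, 9 were lower and 1 did not pass. The Purkinje cell glutamate transporter Slc1a6 was higher at 4.33 ± 0.086, as was Slc1a3, known from Bergmann glia, at 1.33 ± 0.04. The astrocytic Slc1a2 was lower at -1.85 ± 0.041, as was the neuronal Slc1a1 at -1.9 ± 0.056. The median log2 fold changes of the 5 lists were -1.04, -0.48, -0.95, 0.1 and -0.21 in the order given, against 0.0078 over all genes tested. In the 5 mutant comparisons the medians of the lists lay between -0.09 and 0.05.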

How the data were processed

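Gene counts of 33 polyA-selected, stranded RNA-seq libraries in 9 groups were taken as deposited by the authors in 5 tables of 38393 features, each with 2 groups. STAR 2.4, HTSeq 0.6.1p1 and DESeq2 1.10 are named in the submitters' processing notes with mm10 and GRCm38, while no source used here states the counting mode, strand setting or annotation release. The authors' log2 fold changes and adjusted p-values stand in the same deposited tables. They were used only for the count of genes they call and for the log2 fold change of Gabra5 in experiment 1B. A cell missing in 1 record of the experiment 1A table was put back by position.

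The 46 receptor genes were matched by symbol, and some that enter the counts are not reported by name here. The members and the gene lists were chosen with earlier results of these data known. Counts of each comparison were tested over all genes by the quasi-likelihood F-test of edgeR 4.0.16 (R 4.3.3), after TMM scaling and removal of low genes by filterByExpr at a minimum of 10. P-values were adjusted by the Benjamini-Hochberg method and called under 0.05. The SE of a log2 fold change was its size over the square root of the F statistic, which can be too small at few counts. Each fit held the libraries of its own groups, and the tissue by genotype term was fitted over all 14 libraries of experiment 2. Cerebellar and cortical counts of experiment 2 were joined from their own tables before scaling. The test was checked on simulated counts. The genes named are, in each family, those with the largest called change in each direction and all others of at least 2-fold, the 3 smallest p-values in each mutant comparison, and up to 4 smallest p-values in each list. Levels per kb used GENCODE vM21 exons or coding sequences on GRCm38. Alternatives were DESeq2 1.42.0, RLE scaling, no filter on low counts, a replicate block, all groups in 1 fit and leaving out each library.

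Total counts ran from 6.89 to 24.94 M per library. Intervals and floors cover counting error only. The labels do not say that libraries come from separate mice, so p-values measure the spread between these samples, which may be technical. Same-numbered libraries deviated together, by the rule that every pair's correlation is over 0.1, in Mir7DKO cerebellum and cortex (r = 0.17, 0.17 and 0.12) and in Mir7DKO and wild-type cortex (r = 0.22, 0.27 and 0.16), a pairing that comes from the data and not from the labels. In wild-type cerebellum and cortex the correlations ran from -0.09 to -0.01.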

Additional observations from a re-analysis of the deposited data

Results flagged for a closer look

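Among 63 groups of 4 libraries examined for the named genes, 6 held a library far from the other 3 by Dixon's criterion at the 95% level, where chance gives about 1 in 20. In wild-type cerebellum replicate 2 of experiment 2 there were 3 of them: Gabrd at 147 CPM lay above the other 3, Gabbr1 at 802 CPM below them and Gabrq at 0.662 CPM above them. Wild-type cortex replicate 1 had the highest Gria3, 430 CPM, and wild-type cortex replicate 2 the highest Gabra6, 1.27 CPM. In CyrKO cerebellum replicate 2, Gria3 was lowest at 199 CPM.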

How the results depend on the processing

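In the wild-type tissue comparison the 38 called receptor genes were all called again with DESeq2, RLE scaling, the replicate block, all groups in 1 fit and each library left out; with no filter on low counts 37 of them were, Gabbr1 being lost. The counts ran from 12 to 15 higher and from 26 to 28 lower. With the replicate block 12 were higher and 27 lower, Gabbr2 being added at an edgeR adjusted p of 0.0435. In Mir7DKO the counts ran from 13 to 14 higher and from 24 to 26 lower, and 13 and 25 with the replicate block, so the pairing changed no call there; Gabbr1 was lost with no filter and in 5 of 6 fits that left out a library. Of the genes named, only Grin2d turned direction, in that comparison and uncalled: with a library left out it ran from -0.2 to 0.0013, the highest without Mir7DKO cerebellum replicate 2 (log2). The tissue by genotype value of Gabra6 was 4.88, and 2.29 without wild-type cortex replicate 2 (edgeR adjusted p = 0.993). In Mir7DKO cerebellum of experiment 2, 1 receptor gene, Gabra2, was called with no filter on low counts; the cause was not tested. All other alternatives gave 0 in the mutant and tissue by genotype comparisons, the replicate block included. Depth limits Gabre, Gabrq, Grin3b and the rho subunits, and exon length the shares.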
